A study of Rattus norvegicus with 10 samples.

Results

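AMIGO proteins are cell-surface adhesion molecules whose outer part carries leucine-rich repeats and an immunoglobulin domain, and which bind each other on neighbouring cells. They were first described in neurons, where AMIGO1 is also an auxiliary subunit of voltage-gated potassium channels, AMIGO2 supports cell survival and binds the kinase PDK1, and AMIGO3 can take part in Nogo receptor signalling.

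The family was defined by gene symbol as Amigo1, Amigo2 and Amigo3. Of these 3 genes, 2 had values among 23918 genes in the table. Amigo1 (ENSRNOG00000045665) and Amigo2 (ENSRNOG00000007032) are each represented by 1 transcript, of 4642 and 3096 bases, and both passed the filter on low values together with 12941 genes in all. No row used here carries the symbol Amigo3, so its expression was not analysed here, and only its RefSeq start window and its neighbours are described. The family was picked with the change of Amigo2 in view, so the levels and changes of its members are given below as descriptions without a test.

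The measurements come from β-cells, which secrete insulin, of adult male Sprague-Dawley rats, sorted from dispersed islets by autofluorescence and grown on extracellular matrix. In the siScrt1 group the cells received a pool of 4 siRNAs against Scrt1, a transcriptional repressor of the Snail superfamily, and in the siCtrl group a negative control siRNA; RNA was collected 48 h later. Both groups comprised 5 libraries, named siCtrl 1 to 5 and siScrt1 A to E. A single siRNA pool was used, and whether the libraries of a group came from separate rats is not given in the sources used here, so the spread between them may be partly technical. The study states an average insulin-positive share of 99.1% ± 0.9 for sorted β-cell fractions, which is not a value of each library.

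RNA-seq depth ran from 11901342 to 17444034 recovered reads, that is, reads regained from the deposited scaled values, and did not differ between groups beyond the spread (exact two-sided permutation test, p = 0.635). Among marker genes, 8 of 9 β-cell genes had values and summed to between 102884 and 166031 CPM (recovered reads scaled to a common library total) in siCtrl and between 104869 and 150961 CPM in siScrt1. The 6 α-cell genes summed to 213 to 582 CPM in siCtrl and 210 to 463 CPM in siScrt1, nearly all of it glucagon. The 4 genes of δ- and PP-cells reached 16.6 to 74.7 CPM in siCtrl and 20.4 to 82.8 CPM in siScrt1. The 5 duct genes reached 211 to 293 CPM and 223 to 293 CPM, mostly Krt7, and the Schwann and neural genes (6 of 7 with values) 68.7 to 88.6 CPM and 67.0 to 91.4 CPM, mostly Tubb3. Acinar genes (6) stayed at or under 0.385 CPM, endothelial genes (5 of 6) at or under 4.11 CPM and immune genes (6) at or under 5.16 CPM in every library, and the T-cell gene Cd3e and the Schwann-cell gene Sox10 had no read in any library. The 7 mesenchymal genes ranged from 3.71 to 16.8 CPM in siCtrl and from 4.72 to 30.9 CPM in siScrt1, with the top value in siScrt1 D. None of these 9 sums differed between groups beyond the spread (exact two-sided permutation tests, unadjusted p between 0.238 and 0.921).

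The regions around the starts of the genes are shown because Scratch and Snail proteins recognise an E-box with the core CAGGTG. The RefSeq windows cover 250 bases before and 50 bases after an annotated start, on build GRCr8, which is not the build of the expression values. Capitals mark the 50 bases from the start onward, and both windows read 5′ to 3′ along the gene.
Amigo1, chr2:198511058-198511357, plus strand: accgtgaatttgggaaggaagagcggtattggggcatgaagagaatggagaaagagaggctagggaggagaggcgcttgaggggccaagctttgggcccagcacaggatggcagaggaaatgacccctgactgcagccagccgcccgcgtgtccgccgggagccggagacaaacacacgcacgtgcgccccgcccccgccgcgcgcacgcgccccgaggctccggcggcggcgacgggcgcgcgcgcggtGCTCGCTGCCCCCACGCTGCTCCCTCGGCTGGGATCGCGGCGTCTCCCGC
Amigo2, chr7:130273686-130273985, minus strand: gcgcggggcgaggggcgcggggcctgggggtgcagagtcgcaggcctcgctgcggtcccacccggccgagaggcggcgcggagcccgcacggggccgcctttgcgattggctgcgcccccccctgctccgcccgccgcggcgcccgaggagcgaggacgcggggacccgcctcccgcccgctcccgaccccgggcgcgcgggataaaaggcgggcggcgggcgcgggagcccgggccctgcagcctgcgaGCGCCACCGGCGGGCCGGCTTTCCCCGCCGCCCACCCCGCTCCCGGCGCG

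Both starts lie in GC-rich sequence. The Amigo2 window was 83.7% G or C with 52 CpG dinucleotides, and 99.5% of the 33469 RefSeq rat windows of this length held fewer CpG. The first Amigo1 window was 70.7% G or C with 37 CpG, while the median window had 51.7% and 7. Neither window, nor the window of a second annotated Amigo1 start (57.0% G or C, 7 CpG), held CAGGTG or its reverse complement CACCTG. That second Amigo1 start is an ATG in its RefSeq model. The core occurs on either strand in 18.8% of all windows, and the longer CAACAGGTG, which contains it, in 0.203%. Within the family only the Amigo3 window held the core, 134 bases before the annotated start, which in that RefSeq model is an ATG. It is shown with 10 bases on each side and the core in capitals.
Amigo3, chr8:117620355-117620380, plus strand: ccaggctgggCAGGTGgagccagcat

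In control β-cells the transcripts of Amigo1 and Amigo2 were at about the same level per length. As scaled TPM, Amigo2 was 8.08, 7.40, 7.37, 7.44 and 7.29 in siCtrl 1 to 5, a mean of 7.52 ± 0.321 (SD, n = 5). Amigo1 was 8.05, 6.12, 7.35, 7.97 and 6.67 in the same libraries, a mean of 7.23 ± 0.836 (SD, n = 5). The ranges overlapped, and although Amigo2 was above Amigo1 in 4 of 5 libraries, the ratio of Amigo2 to Amigo1 was 1.05 ± 0.107, so that the order of the genes was not settled beyond their spread. Both lay near the middle of the tested genes, 42.9% of which had a lower mean TPM than Amigo2 in siCtrl and 41.7% a lower one than Amigo1. Scrt1 itself stood at a like level, with 8.13 ± 1.58 TPM (SD, n = 5).

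The targeted gene was lowered in the siScrt1 libraries. Scrt1 had 8.78, 6.34, 8.60, 10.2 and 6.75 TPM in siCtrl 1 to 5 and 3.40, 2.53, 2.58, 1.24 and 0.928 TPM in siScrt1 A to E. The groups did not overlap, and siScrt1 D and E held the lowest levels.

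Amigo2 transcripts were more abundant in every siScrt1 library than in any siCtrl library. The recovered reads were 341, 337, 376, 373 and 320 in siCtrl 1 to 5 and 532, 665, 535, 668 and 705 in siScrt1 A to E. As scaled TPM, the siScrt1 libraries had 14.4, 12.0, 12.3, 12.9 and 14.4, a mean of 13.2 ± 1.15 (SD, n = 5), which was 1.76 times the siCtrl mean. The lowest siScrt1 value thus stood above the top siCtrl value of 8.08 TPM. The fitted log2 fold change was 0.80 (SE 0.0723). In such bulk samples, more transcript per cell and more cells holding it cannot be told apart. In the order of all tested genes by TPM, Amigo2 moved from above 42.9% of genes to above 58.6%.

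The counting error of the libraries on each side of this gap is given as a description. The siCtrl library with the highest Amigo2 CPM, siCtrl 2, had 26.0 CPM (exact 95% Poisson interval 23.3 to 28.9), and the poorest siScrt1 library, B, had 38.1 CPM (interval 35.3 to 41.1). These intervals cover counting error only, and Amigo2 was chosen by this same contrast, so they lend its change no support. All Amigo2, Amigo1 and Scrt1 values corresponded to whole reads, so none of their reads had been divided with another transcript.

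Amigo1 was also higher on average in siScrt1, by less and with overlap between groups. Its reads numbered 521, 427, 575, 613 and 449 in siCtrl 1 to 5 and 487, 669, 601, 802 and 681 in siScrt1 A to E. As scaled TPM, siScrt1 A to E had 8.62, 7.86, 9.02, 10.1 and 9.04, a mean of 8.92 ± 0.799 (SD, n = 5), which was 1.23 times the siCtrl mean. Of the 5 siScrt1 libraries, 4 lay above all siCtrl libraries, while siScrt1 B lay within their range. The fitted log2 fold change was 0.30 (SE 0.0911).

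Of the 2 measured members, Amigo2 was among the genes raised at an adjusted p-value under 0.05 in limma (0.371% of the tested genes were raised and 1.05% changed in either direction), and Amigo2 was among the genes higher in siScrt1 without overlap (1.48% of the tested genes). Amigo2 was chosen by this same contrast, so nothing is read from these counts. The median log2 fold change over all 12941 tested genes was 0.0035.

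**Figure D1:**
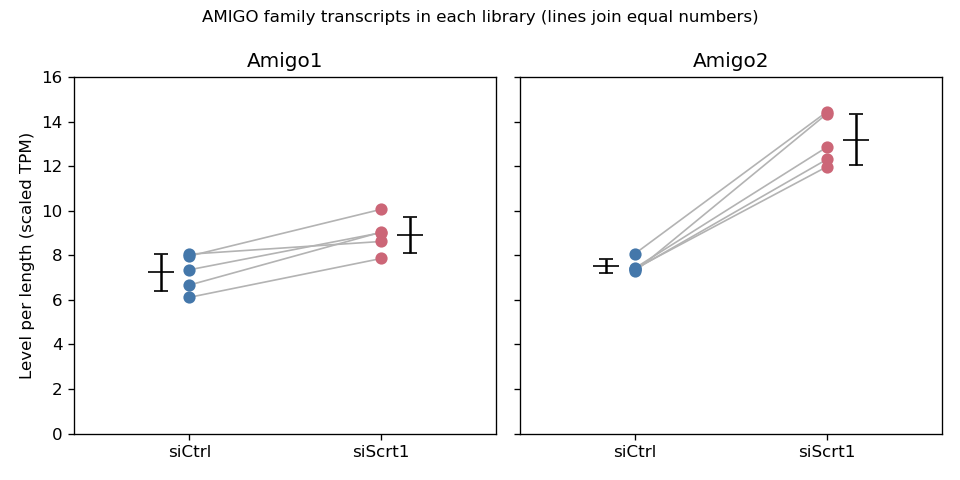
Scaled TPM (y axis) of Amigo1 and Amigo2 in each siCtrl (blue) and siScrt1 (red) library; grey lines join libraries of equal number in the deposited table, and black bars give the mean and SD of 5 libraries. The Amigo2 values lie between 7.29 and 8.08 in siCtrl and between 12.0 and 14.4 in siScrt1, whereas the Amigo1 values of the groups overlap.

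The deposited table numbers the libraries 1 to 5 in each group, and the differences were also taken within equal numbers. Amigo2 was higher in siScrt1 in 5 of 5 such pairs, with log2 differences of 0.84, 0.69, 0.72, 0.79 and 0.97 in pairs 1 to 5. Since its groups did not overlap, any other pairing would also place it higher in every pair. Amigo1 was higher in 5 of 5 pairs as well, with log2 differences of 0.10, 0.36, 0.28, 0.34 and 0.43. Pair 1 therefore had the smallest difference of Amigo1 and the second largest of Amigo2. For Scrt1 the log2 differences were -1.36, -1.32, -1.74, -3.01 and -2.84. From the deepest to the smallest loss of Scrt1, pairs 4, 5, 3, 1 and 2 had Amigo2 differences of 0.79, 0.97, 0.72, 0.84 and 0.69. The log2 differences of Amigo2 spanned 0.69 to 0.97 while those of Scrt1 spanned -3.01 to -1.32. A relation between these differences was not tested. How many of all tested genes were higher in every pair is not given here, so nothing is read from the counts of pairs.

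**Figure D2:**
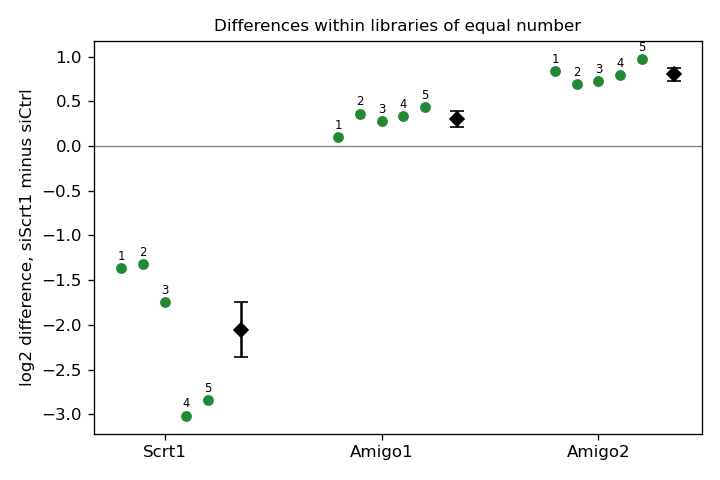
Log2 difference of scaled counts, siScrt1 minus siCtrl (y axis), for Scrt1, Amigo1 and Amigo2 in the 5 pairs of equal number (green points, numbered) with the fitted log2 fold change and its SE (black diamonds). The Amigo2 points lie between 0.69 and 0.97, the Amigo1 points between 0.10 and 0.43 and the Scrt1 points between -3.01 and -1.32.

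The balance within the family moved with Amigo2. Its share of the summed Amigo1 and Amigo2 TPM was 50.1%, 54.8%, 50.1%, 48.3% and 52.2% in siCtrl 1 to 5 and 62.6%, 60.4%, 57.7%, 56.1% and 61.4% in siScrt1 A to E. The shares did not overlap between groups, and Amigo2 exceeded Amigo1 in 5 of 5 siScrt1 libraries. The choice of Amigo2 by this same contrast favours such a separation, so nothing is read from it. The summed level of the pair of genes was 14.7 ± 1.06 TPM in siCtrl and 22.1 ± 1.50 TPM in siScrt1 (SD, n = 5 each).

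The neighbours of the AMIGO genes were examined because reads of overlapping genes can be assigned to the wrong one. In RefSeq, Amigo2 and Pced1b, a gene of the PC-esterase family, start head to head on opposite strands. Their annotated ranges overlap by 205 bases, and their start windows share 296 bases, so the GC-rich window printed for Amigo2 is also that of Pced1b. Transcripts from the starts of these windows run away from each other without overlap, so the overlap of ranges does not come from these starts. Pced1b had 54, 70, 67, 90 and 57 reads in siCtrl 1 to 5 and 63, 133, 112, 100 and 101 in siScrt1 A to E. Only siScrt1 A fell within the siCtrl range on the scaled values. The log2 fold change of Pced1b was 0.55 (SE 0.148) and did not pass the test (limma adjusted p = 0.124). Its values also corresponded to whole reads, so no read was divided between these transcripts, but the strand setting of the counting is not given in the sources used here.

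None of the 12 nearest tested neighbours, 2 on each side of each member, passed the threshold in limma, 3 had an unadjusted p-value under 0.05 (11.1% of all tested genes did), and their median log2 fold change was -0.02. Beside Pced1b, the neighbours of Amigo2 were the amino acid transporter genes Slc38a4 and Slc38a2, with log2 fold changes of 0.18 (SE 0.142) and -0.16 (SE 0.0872), and Rpap3, which encodes an RNA polymerase II associated protein, with -0.05 (SE 0.0862). Not all of these genes are adjacent to a member. Counted in annotated genes from Amigo2, Slc38a4, Slc38a2 and Rpap3 lie at ranks 9, 22 and 10, and Pced1b at rank 1. Around Amigo1, Gnai3 and Ampd2 lie at ranks 4 and 6 on one side, and Cyb561d1 and Atxn7l2 at ranks 1 and 2 on the other. The inhibitory G protein gene Gnai3 had a fitted log2 change of -0.28 ± 0.0660 (SE, limma adjusted p = 0.0739). With the replicate number as a block Gnai3 passed the threshold (adjusted p = 0.0326). Atxn7l2 had 0.33 (SE 0.133, limma adjusted p = 0.370) without overlap between groups, the AMP deaminase gene Ampd2 had 0.03 (SE 0.102), and Cyb561d1 had 0.08 (SE 0.133). Around the Amigo3 locus, where RefSeq places the genes Gmppb and Rnf123 over the same bases, the 4 neighbours Gmppb, Rnf123, Apeh and Bsn had log2 fold changes between -0.13 and 0.0025.

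**Figure D3:**
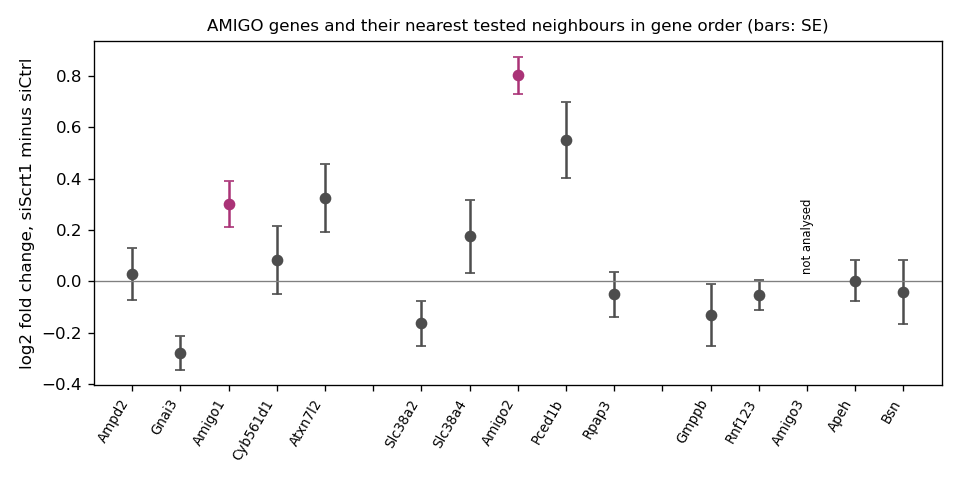
Log2 fold change, siScrt1 minus siCtrl (y axis, bars are SE), of Amigo1 and Amigo2 (purple) and of the 2 nearest tested genes on each side (grey), set out in gene order around each member. Annotated genes that were not tested are left out between them. Amigo2 at 0.80 and its head-to-head neighbour Pced1b at 0.55 have the highest values shown; the expression of Amigo3 was not analysed.

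Genes of proteins known to work with AMIGO molecules were followed through lists. Further lists held other leucine-rich repeat adhesion genes, adhesion genes of islet cells and depolarisation-induced genes, which are not lists of AMIGO partners. The pooled counts cover both kinds of list. Over all lists, 82 of 119 genes were tested, 0 were raised and 3 lowered at an adjusted p-value under 0.05 in limma, that is, 3.66% beside 1.05% of all tested genes, a difference that was not tested, and the unadjusted p-value of 16 was below 0.05, which is the case for 11.1% of all tested genes. Their median log2 fold change was 0.06. limma-voom on recovered reads also gave 3, and gave 0 in each list, and among the neighbours above, for which limma gave 0. With the replicate number as a block, 8 of the 82 passed, 3 raised and 5 lowered, where 2.00% of all tested genes did. The lists were chosen with earlier results of these data known, so nothing is read from these shares.

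Of the list of potassium channel subunits and their partners, to which AMIGO1 belongs as an auxiliary subunit, 6 of 14 genes were tested and none passed (0 at an unadjusted p-value under 0.05 in limma, and 0 with the replicate block). Vapa and Vapb, which encode proteins of the endoplasmic reticulum that tether it to other membranes, had log2 fold changes of -0.04 (SE 0.0797) and -0.01 (SE 0.0688). The median of the list was 0.03.

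In the PDK1 and Akt list, which holds the signalling partners of AMIGO2, 14 of 14 genes were tested, 1 was lowered and none raised. The gene lowered was Akt1, a survival kinase activated by PDK1, which fell from 151 ± 20.01 to 79.7 ± 12.6 CPM (SD, n = 5 each). Its fitted log2 change was -0.90 (SE 0.132, limma adjusted p = 0.00568), without overlap between groups. Pdpk1, which encodes PDK1, had 20.3 ± 1.20 TPM in siCtrl and 22.7 ± 1.42 TPM in siScrt1. Its groups did not overlap, yet its log2 fold change of 0.16 (SE 0.0666) did not pass the test (limma adjusted p = 0.382). The lipid kinase subunit gene Pik3ca had a log2 fold change of -0.13 (SE 0.0873), and the median of the list was 0.03.

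Of the Nogo receptor list, 8 of 12 genes were tested, 1 was lowered and none raised, with a median of -0.03. The gene lowered was Rtn4, which encodes the ligand Nogo and fell from 162 ± 21.0 to 125 ± 7.35 CPM (SD, n = 5 each), without overlap between groups. Its log2 value was -0.33 (SE 0.0673) at an adjusted p of 0.0362 in limma. The call was lost when any 1 library other than siCtrl 1 was left out, with adjusted p-values up to 0.107, and under cyclic loess and without a filter. The downstream GTPase Rhoa had -0.08 (SE 0.0799) and the kinase Rock1 -0.23 (SE 0.0942, limma adjusted p = 0.370). At an unadjusted p-value under 0.05 in limma the list held 3 genes, 1 higher and 2 lower in siScrt1 (11.1% of all tested genes did so). The higher one was Ngfr, at 0.75 (SE 0.254, limma adjusted p = 0.264), which was named after its values were seen. Of the amphoterin list, named for the protein that induces AMIGO expression in neurons, 3 of 5 genes were tested and none passed (0 at an unadjusted p-value under 0.05 in limma). Hmgb1, the amphoterin gene, had a log2 fold change of -0.12 (SE 0.0806), and Hmgb2 had 0.29 (SE 0.249). The median of the list was 0.10.

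Other leucine-rich repeat adhesion genes did not pass the test. Of 38 such genes 21 were tested, 0 passed in limma, 2 had an unadjusted p-value under 0.05, and the median was 0.09. Lrrn2 had a fitted log2 change of 0.39 ± 0.0972 (SE, limma adjusted p = 0.0896), and Slitrk6 one of -0.29 (SE 0.298), with a wide spread between libraries. With the replicate block 3 genes of the list passed, namely Lrrn2 (adjusted p = 0.0351), Lrrn1 at -0.32 (adjusted p = 0.0351) and Lrrtm2 at -0.71 (adjusted p = 0.0112); Lrrn1 and Lrrtm2 were named after their values were seen.

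Among adhesion genes of islet cells, 24 of 26 were tested, 1 was lowered and none raised, with a median of 0.05. The gene lowered was Epcam, an epithelial adhesion molecule, which went from 81.9 ± 4.36 to 57.6 ± 7.11 TPM (SD, n = 5 each). Its fitted log2 change was -0.52 (SE 0.0844, limma adjusted p = 0.00964), without overlap between groups. The integrin subunit gene Itgb1 and the E-cadherin gene Cdh1, the most abundant of the list, had log2 fold changes of 0.06 (SE 0.0607) and 0.10 (SE 0.0772). With the replicate block 2 genes of the list passed, Epcam and Cadm1, which was named after its values were seen (log2 fold change 0.37, adjusted p = 0.0123).

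Depolarisation induces immediate early genes, and 7 of 11 genes of such a list were tested. None passed in limma, 1 had an unadjusted p-value under 0.05, and the median was 0.29. Of the 7 log2 fold changes 6 were above 0, as were 51 of 82 over all lists and 51.0% over all tested genes. These shares were not compared by a test. The most abundant were Junb, with a log2 fold change of 0.20 (SE 0.194), and Arc, with 0.29 (SE 0.159). With the replicate block Egr1 passed (log2 fold change 0.68, adjusted p = 0.0367), and it too was named after its values were seen.

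**Figure D4:**
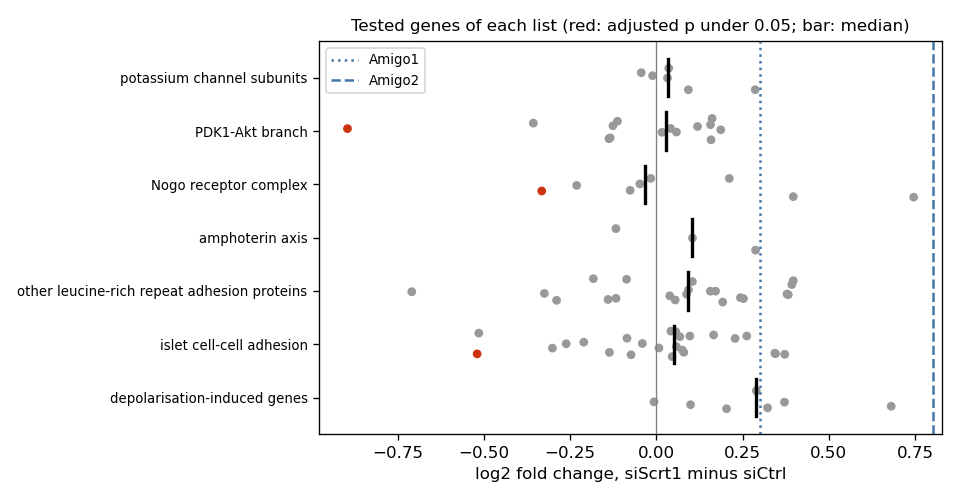
Log2 fold change, siScrt1 minus siCtrl (x axis), of each tested gene in the 7 lists (points, red where the limma adjusted p-value was under 0.05) with the list median (black bar) and the values of Amigo1 (dotted line, 0.30) and Amigo2 (dashed line, 0.80). The 3 red points are Akt1 at -0.90, Epcam at -0.52 and Rtn4 at -0.33, and no listed gene reaches the Amigo2 line.

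The genes whose profile over the 10 libraries was most like that of Amigo2 were Cd1d1, AABR07039334.1, Cabcoco1, Plekhb1 and Hap1. Likeness was the root mean square difference of log2 values after each gene was centred on its siCtrl mean, over 12940 other genes. The difference was 0.11 for Cd1d1, a lipid antigen presenting molecule, and ranged up to 0.18 for Hap1, the huntingtin-associated protein gene. For Amigo1 it was 0.38. Cd1d1 had 6.74 ± 0.364 TPM in siCtrl and 12.5 ± 0.954 TPM in siScrt1 (SD, n = 5 each), near the Amigo2 levels in both groups. Plekhb1 had 7.13 ± 1.17 and 13.9 ± 1.24 TPM, and Hap1, the most abundant of these genes, 25.9 ± 4.64 and 40.8 ± 1.93 TPM. All of these genes were separated without overlap between groups, which their selection by likeness to Amigo2 favours.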

How the data were processed

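Reads were single-end, and the authors quantified them with kallisto against the Rnor6 transcriptome and scaled them with Sleuth; FastQC and Trimmomatic are named in the submitters' processing notes, and versions are not given in the sources used here. The deposited estimated counts are scaled signal values, and the deposited TPM values are scaled scores whose library sums differ. The deposited table has 31715 transcripts in 10 libraries; 9363 annotation rows without values were left out.

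Values were summed over the transcripts of each gene. Scaled counts divided by the worth of 1 read gave recovered reads; 50.3% of transcript values above 0 were whole within 0.01, so no count test was used in place of limma. CPM refer to recovered reads. Genes reaching 0.7 CPM (10 reads at the median library size) in 5 libraries with at least 15 reads were tested as log2(value + 0.5) with limma 3.58.1 (intensity trend) in R 4.3.3, with Benjamini-Hochberg adjustment and a threshold of 0.05. This scale understates changes of low genes. The fit was tested on simulated data. Python 3.11.15 and matplotlib 3.10.9 were used for summaries and plots.

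Library numbers come from the deposited table. Same-numbered libraries deviated together (r over genes 0.131 to 0.351 in 5 of 5 pairs; -0.179 to 0.167 otherwise), so a fit with the number as a block was run as an alternative. The members and gene lists were chosen with earlier results of these data known. Of each list, genes past the threshold and the 2 most abundant tested genes are named, with Pdpk1, Akt1 and Hmgb1, the 2 nearest tested neighbours on each side of each member, and the 5 genes most like Amigo2. A further gene of the naming rule is not reported here. Of the listed genes 115 of 119 had a symbol in the table. Neighbours and start windows come from RefSeq (GRCr8), matched by symbol.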

Additional observations from a re-analysis of the deposited data

Results flagged for a closer look

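Within a group of 5 libraries, a value was singled out when its gap to the nearest other exceeded 0.710 of the group's range (Dixon's limit). This was met in 9 of 84 groups examined, where chance gives about 4. Amigo2 in siCtrl 1 had 376 scaled counts, above 347 in the next and 341 in the lowest siCtrl library. On this scale the widest siCtrl value of Amigo2 lies toward the siScrt1 libraries and still below all of them. By CPM siCtrl 1 did not stand out, with 25.5 CPM beside 26.0 in siCtrl 2. Slitrk6 was high in the libraries numbered 1 of both groups, with 2595 scaled counts in siCtrl 1 (next 1338) and 2404 in siScrt1 A (next 1104). Junb had 602 scaled counts in siCtrl 1 (next 370). Slc38a4 had 10560 scaled counts in siScrt1 A (next 7634), and Atxn7l2 had 113 in siScrt1 D (next 104). The mesenchymal marker sum reached 16.8 CPM in siCtrl 4 (next 6.86) and 30.9 CPM in siScrt1 D (next 8.74), the libraries numbered 4 in both groups. The immune marker sum reached 5.16 CPM in siScrt1 B (next 3.78).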

How the results depend on the processing

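The log2 fold change of Amigo2 stayed between 0.73 and 0.84, that of Amigo1 between 0.24 and 0.35 and that of Scrt1 between -2.26 and -1.59 over 20 alternatives each, and the log2 ratio of Amigo2 to Amigo1 in siCtrl, 0.06, between 0.0067 and 0.10 over 6. The number of genes changed, 136, became 259 with the replicate block (105 raised, 154 lowered) and 62 to 133 when 1 library was left out, lowest without siScrt1 D. The other alternatives gave 96 (no filter) to 139. Listed genes changed went from 3 to 8, and neighbours changed from 0 to 1 (Gnai3), with the block; leaving out 1 library gave 2 to 4 listed genes and 0 to 1 neighbours, Gnai3 without siCtrl 1 (adjusted p = 0.0223). Rtn4 lost its call under cyclic loess (adjusted p = 0.0534), without a filter (0.0536) and in every omission of 1 library except that of siCtrl 1, with adjusted p-values up to 0.107. Lrrn2 passed with the block and without siCtrl 3 (adjusted p = 0.0260). The block changed no other call of a gene named by the rule. Genes near 0 changed sign: Vapb under cyclic loess (0.0060), Apeh under limma-voom (-0.0034), and, over omissions of 1 library, Vapa (-0.10 to 0.0017), Vapb (-0.055 to 0.021), Ampd2 (-0.029 to 0.11), Cyb561d1 (-0.010 to 0.13), Rpap3 (-0.087 to 0.013), Apeh (-0.030 to 0.062) and Bsn (-0.13 to 0.034). The cause of these shifts was not tested. Amigo2 rests on 320 to 705 reads in a library and Pced1b on 54 to 133.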
